A study of Mus musculus with 18 samples.

Results

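The genes of 10 naive pluripotency factors, Nanog, Klf2, Klf4, Klf5, Esrrb, Tfcp2l1, Tbx3, Prdm14, Zfp42 and Dppa3, were followed through 18 chromatin immunoprecipitation sequencing (ChIP-seq) libraries of E14 mouse embryonic stem cells. They are a list of named genes, taken from 17278 protein-coding genes on the autosomes and chromosome X for which a start site could be placed, by name and not by a threshold on any measured value, although earlier results of these data were known when the list was chosen. All cells were E14, an established mouse embryonic stem cell line, kept in 2i/LIF, a medium with inhibitors of the kinases MEK and GSK3 and the cytokine LIF. Untreated cells gave 2 libraries each for H3K27me1, H3K27me2, H3K27me3, H3K36me2 and H3K36me3. Cells treated for 7 days with 10 µM EPZ-6438, which blocks the H3K27 methyltransferase EZH2, or with the solvent DMSO alone, gave 2 libraries per arm for H3K27me3 and for H3K36me2, with Drosophila S2 chromatin added at 0.05% as a reference. The inhibitor arm is written EZH2i below. All groups came from a single cell line, and the labels do not say whether replicates were separate cultures, so every p-value measures the spread between these libraries, which may be technical.

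In mouse embryonic stem cells the naive state is held by a network of transcription factors that sustain one another and answer to the signals that 2i and LIF provide, and most of its genes are switched off as cells leave that state. H3K27me3 is laid down by Polycomb repressive complex 2 (PRC2), with EZH2 as a catalytic subunit, and marks silent developmental genes. H3K36me3 is placed along transcribed gene bodies by SETD2, H3K36me2 is spread widely over genes and the space between them by NSD enzymes, and methylation at K36 hinders PRC2 on the same histone tail.

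For each gene 3 regions were read in GRCm38 coordinates from RefSeq: 1 kb to each side of the transcription start site (TSS), the gene body from 1 kb past the start to the gene end, and the flanks within 20 kb on either side. The RefSeq promoter table used here has entries for 6 of the 10 genes, 250 bases before to 50 bases after the start, and they are shown because the genes differ widely in the CpG dinucleotides that PRC2 targets tend to be rich in. Capitals mark each CpG, and all are written 5′ to 3′ on the gene's strand from the GRCm38.p6 RefSeq table. Klf5, Tbx3, Prdm14 and Dppa3 are named only.
Klf4, chr4:55532426-55532725, minus strand: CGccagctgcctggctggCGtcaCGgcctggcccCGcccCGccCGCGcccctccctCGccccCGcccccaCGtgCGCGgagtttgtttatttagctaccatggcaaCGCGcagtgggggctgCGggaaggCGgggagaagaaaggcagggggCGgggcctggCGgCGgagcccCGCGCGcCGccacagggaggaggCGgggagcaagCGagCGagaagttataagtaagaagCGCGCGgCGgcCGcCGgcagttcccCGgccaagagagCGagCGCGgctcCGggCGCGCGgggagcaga
Klf2, chr8:72318812-72319111, plus strand: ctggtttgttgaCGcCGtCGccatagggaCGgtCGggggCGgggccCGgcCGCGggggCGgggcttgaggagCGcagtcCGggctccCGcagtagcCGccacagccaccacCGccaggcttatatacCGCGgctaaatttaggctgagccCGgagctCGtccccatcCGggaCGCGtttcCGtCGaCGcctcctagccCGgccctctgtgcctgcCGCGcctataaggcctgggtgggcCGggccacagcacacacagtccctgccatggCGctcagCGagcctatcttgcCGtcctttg
Tfcp2l1, chr1:118627695-118627994, plus strand: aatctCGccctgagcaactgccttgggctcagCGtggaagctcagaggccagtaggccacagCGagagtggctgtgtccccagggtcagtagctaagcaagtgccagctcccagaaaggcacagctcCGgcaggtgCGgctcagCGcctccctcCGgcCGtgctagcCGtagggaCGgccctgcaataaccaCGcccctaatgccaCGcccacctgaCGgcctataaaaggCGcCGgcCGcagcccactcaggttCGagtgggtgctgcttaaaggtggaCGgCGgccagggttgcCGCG
Zfp42, chr8:43306960-43307259, minus strand: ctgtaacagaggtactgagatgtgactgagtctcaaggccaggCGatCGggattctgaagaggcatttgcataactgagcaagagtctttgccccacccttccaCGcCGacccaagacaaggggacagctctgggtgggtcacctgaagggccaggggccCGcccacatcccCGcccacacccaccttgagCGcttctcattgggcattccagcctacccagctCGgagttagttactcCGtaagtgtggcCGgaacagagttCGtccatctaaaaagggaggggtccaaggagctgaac
Esrrb outer start, chr12:86360867-86361166, plus strand: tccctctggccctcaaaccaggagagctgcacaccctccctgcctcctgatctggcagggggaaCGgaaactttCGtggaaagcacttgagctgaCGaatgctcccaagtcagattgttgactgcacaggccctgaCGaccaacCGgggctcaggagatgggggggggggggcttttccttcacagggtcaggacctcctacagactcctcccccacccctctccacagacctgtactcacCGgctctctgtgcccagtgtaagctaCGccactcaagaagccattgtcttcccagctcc
Esrrb inner start, chr12:86421394-86421693, plus strand: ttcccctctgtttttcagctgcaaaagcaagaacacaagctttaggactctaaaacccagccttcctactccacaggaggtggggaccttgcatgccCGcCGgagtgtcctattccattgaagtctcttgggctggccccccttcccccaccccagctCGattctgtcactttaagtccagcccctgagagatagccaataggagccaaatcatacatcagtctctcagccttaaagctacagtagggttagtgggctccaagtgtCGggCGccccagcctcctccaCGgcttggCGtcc
Nanog outer start, chr6:122707239-122707538, plus strand: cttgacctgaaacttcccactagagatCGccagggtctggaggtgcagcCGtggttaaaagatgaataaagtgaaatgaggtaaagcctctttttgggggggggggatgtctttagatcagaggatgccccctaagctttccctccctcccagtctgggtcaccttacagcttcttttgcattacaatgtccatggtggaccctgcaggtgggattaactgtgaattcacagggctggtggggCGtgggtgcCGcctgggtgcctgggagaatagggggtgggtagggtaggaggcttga

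The CpG count was 40 at Klf4, 32 at Klf2, 21 at Tfcp2l1, 11 at Zfp42, 7 at each Esrrb start and 4 at Nanog, where the outermost of 2 overlapping entries is shown. The Klf4 promoter therefore lies at percentile 96.1 of 32619 mouse promoter entries and that of Nanog at percentile 31.0. In untreated cells H3K27me3 at the start lay above 4 times the library mean at 8.76% of genes with 0 to 4 CpG. The share was 23.7% with 5 to 14 CpG, 17.0% with 15 to 24 and 17.9% with 25 to 65. How CpG count bears on H3K27me3 at the members was not tested. Of the motifs searched on both strands, the octamer ATGCAAAT bound by the Oct4 family was present in the Zfp42 promoter and in 1.75% of all entries. The GC box GGGCGG, which can overlap CpG, occurred 4 times at Klf4, 2 times at Klf2 and 2 times at Zfp42, and in 35.9% of entries. TATAAA was present at Tfcp2l1 and in 13.7% of entries. TCAAGGTCA (bound by Esrrb, 0.426% of entries), the paired CCAG motif of Tfcp2l1 (3.46%) and TTCCNGGAA (STAT3, 1.16%) were not found in these windows.

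Levels in untreated cells are given as multiples of a library's own mean over the genome, replicate 1 before replicate 2, since these libraries carry no spike-in. A window read is a read counted once in each 1 kb window it touches. Library totals are over windows that do not overlap, while counts in a region are over all windows, every 500 bp. The untreated libraries held 22.9 to 67.5 M window reads (M for 1000000). The quantitative libraries held 21.6 to 112 M, except H3K27me3 after the inhibitor with 0.992 and 1.78 M. A TSS region is covered by 4 overlapping windows, so a read there is counted about 2.65 times. The labelled cell type was checked on H3K36me3 over whole genes. The 6 stem cell marker genes were Pou5f1, Sox2, Sall4 and the members Nanog, Zfp42 and Esrrb, so this check shares 3 genes with the results on H3K36me3 given later. All 6 lay above the library mean, as did 3 of 6 fibroblast, 2 of 4 primitive endoderm and 4 of 4 trophoblast marker genes. The median was 6.38 for the stem cell markers, against medians of 1.22 for 6 fibroblast, 1.11 for 4 primitive endoderm and 1.99 for 4 trophoblast marker genes. Summed over each list the levels were 36.5 and 37.8 for stem cell, 7.25 and 7.07 for fibroblast, 4.84 and 4.73 for endoderm and 8.26 and 9.09 for trophoblast markers. No gene of the last 3 lists was at 0, and the part of other cells in the results was not tested. Nanog and Dppa3 have near-identical pseudogene copies, and how reads that match several places were treated is not given in the sources used here, so their values are uncertain.

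In untreated cells 8 of the 10 genes carried little H3K27me3 from the start through the body, while Esrrb and Dppa3 carried it at levels above the genome mean. At the TSS the median of the 10 genes was 0.131, against 0.489 over all 17278 genes, of which 38.4% lay above the library mean. In the body the median was 0.0833 against 0.537. The plot of the 5 marks by gene and region shows this split.

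**Figure D1:**
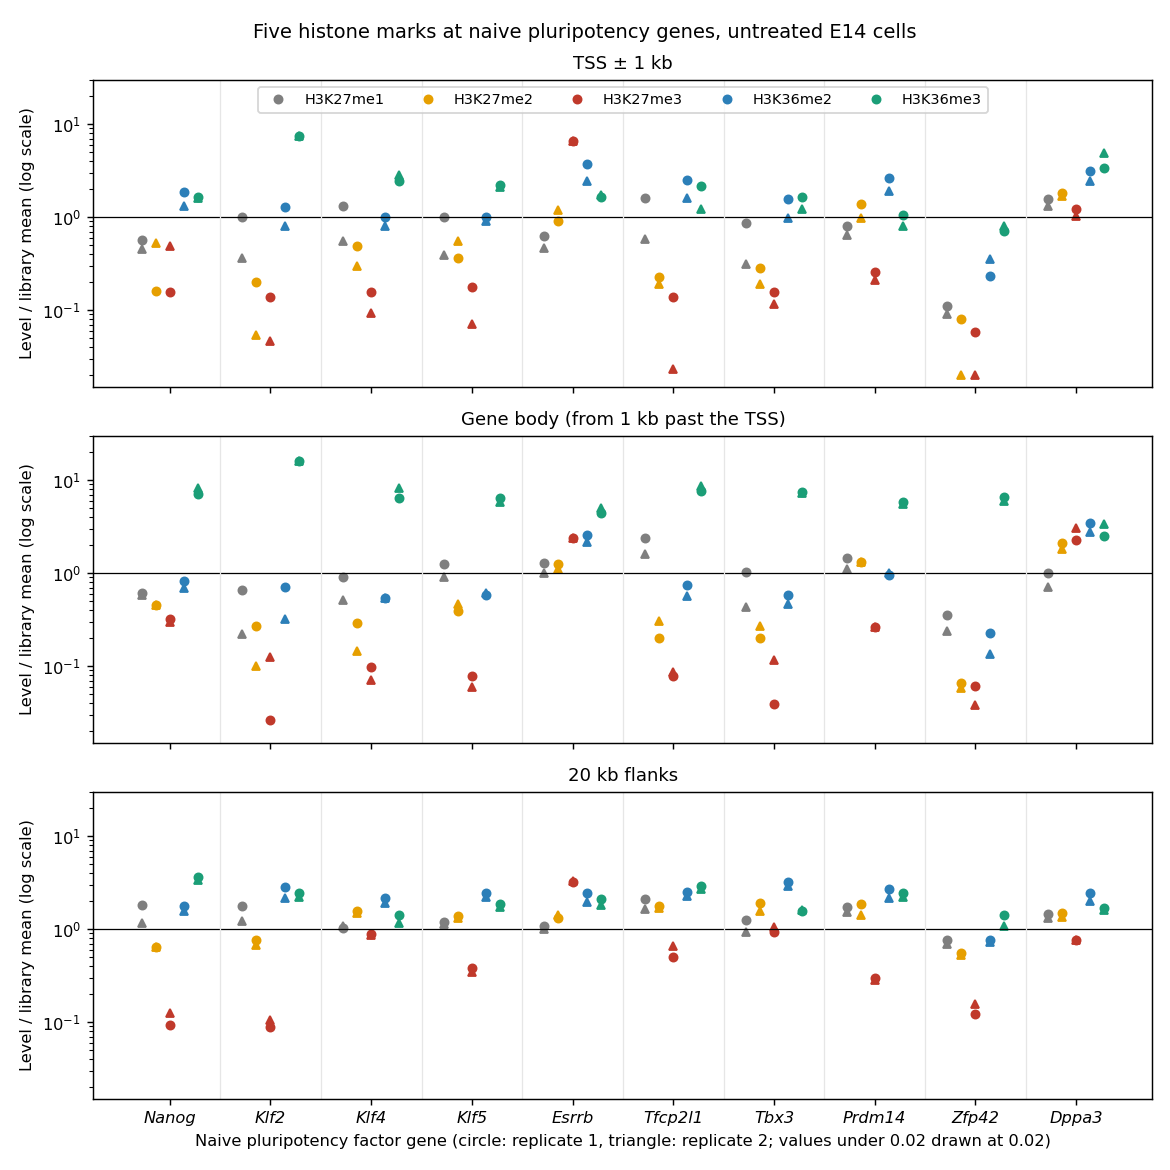
Level of 5 histone marks at 10 genes in untreated E14 cells, as a multiple of the library mean on a log axis, in 3 panels for the TSS, the body and the flanks. Each point is 1 library. H3K36me3 (green) lies above 1 in every body, and H3K27me3 (red) lies below 1 at the TSS and body of every gene but Esrrb and Dppa3.

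Esrrb, on the plus strand at chr12:86361117-86521628 (NCBI Gene 26380), encodes an orphan nuclear receptor that GSK3 inhibition helps to keep expressed. Its TSS held H3K27me3 at 6.51 and 6.61, from 332 and 282 window reads. No other member's start came near that in either library. Dppa3, on the plus strand at chr6:122626424-122630271 (NCBI Gene 73708), encodes Stella, which protects DNA methylation in the early embryo. Its start held 1.22 and 1.03 and its body 2.27 and 3.03.

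The other 8 starts ranged from 0 to 0.492 and rested on 0 to 21 window reads, so no order among them can be read. Nanog, the homeodomain factor at chr6:122707489-122714633 on the plus strand (NCBI Gene 71950), had 0.157 and 0.492. Prdm14, a PR-domain repressor of FGF signalling and DNA methylation at chr1:13113428-13127163 on the minus strand (NCBI Gene 383491), had 0.255 and 0.211. Tbx3, a T-box factor at chr5:119670534-119684724 on the plus strand (NCBI Gene 21386), had 0.157 and 0.117. These values stand for a few reads per library, and the same is true of the Krüppel-like factors. Klf2 at chr8:72319062-72321654 on the plus strand (NCBI Gene 16598) had 0.137 and 0.0469. Klf4 at chr4:55527137-55532475 on the minus strand (NCBI Gene 16600) had 0.157 and 0.0937. Klf5 at chr14:99298691-99313412 on the plus strand (NCBI Gene 12224) had 0.176 and 0.0703. All 3 lay below the median of all genes in both libraries. Tfcp2l1, a CP2-family factor downstream of LIF at chr1:118627923-118685168 on the plus strand (NCBI Gene 81879), had 0.137 and 0.0234. Zfp42, which encodes the naive marker Rex1 and lies at chr8:43295067-43307009 on the minus strand (NCBI Gene 22702), had 0.0588 and 0. The count of 0 allows a level of up to 0.186, the value of 3 reads, and such limits cover counting error only.

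In the body the same 8 genes held 0.0261 to 0.32. The flanks were less uniform. Esrrb stayed highest at 3.23 and 3.26, Tbx3 had 0.939 and 1.06, Klf4 0.887 and 0.859, and Dppa3 0.768 and 0.764. Klf2 (0.0895 and 0.105), Nanog (0.0925 and 0.125) and Zfp42 (0.124 and 0.155) were low over the whole 20 kb on each side. The Tbx3 and Klf4 flanks lay near the median of 0.872 for all genes, but some windows beside these genes were higher. The highest 1 kb window within 20 kb of the Tbx3 start reached 3.53 and 4.22 at -7.03 kb from the start. That of Klf4 reached 2.82 and 2.34 at -15.0 kb. Above 2 on average lay 10 of 80 windows around the Tbx3 start and 7 of 80 around that of Klf4.

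**Figure D2:**
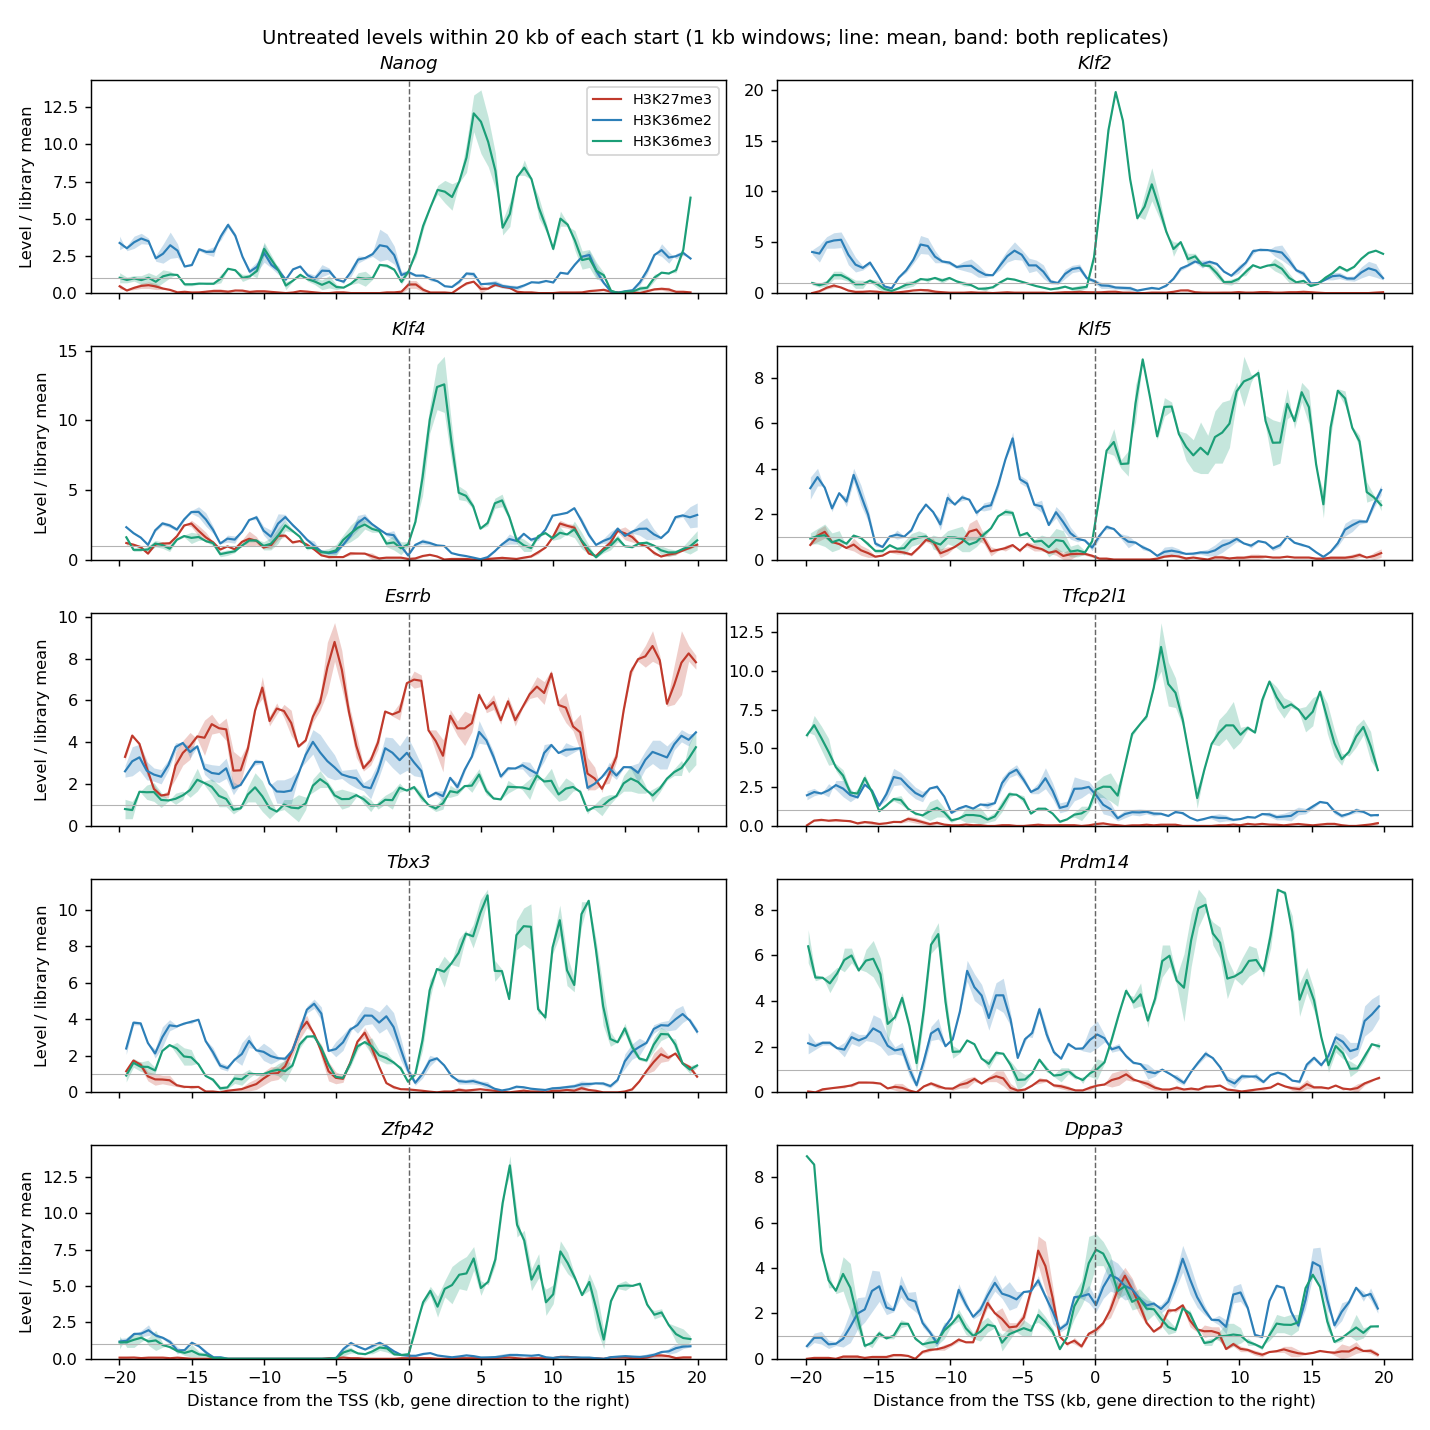
H3K27me3 (red), H3K36me2 (blue) and H3K36me3 (green) within 20 kb of each start in untreated cells, as multiples of the library mean in 1 kb windows. Lines are means of 2 libraries and bands span them. H3K36me3 peaks past the start at Klf2, Klf4, Nanog and Zfp42, H3K27me3 covers the whole window at Esrrb, and reads are missing over a stretch upstream of Zfp42.

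Esrrb was divided along its length. H3K27me3 covered its first part and H3K36me3 its last, as the profile of the marks in 10 kb steps shows. From 20 kb before the outer start to 70 kb past it, every step held H3K27me3 at 3.28 to 7.65 in both libraries. It then dropped to 1.09 and 0.839 at 70 to 80 kb, and from 80 to 160 kb it lay between 0.0516 and 0.431. Past the gene end, at 170 to 180 kb, it was back at 3.10 and 3.47.

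H3K36me3 ran the other way along Esrrb. It lay between 1.24 and 2.09 from 20 kb upstream to 60 kb, reached 6.37 and 7.72 at 90 to 100 kb, fell back to 3.30 and 3.10 in the next step, and was highest at 150 to 160 kb with 10.8 and 12.2. H3K36me2 followed the first part and ended later than H3K27me3: it held 2.26 to 4.17 as far as 110 kb and 0.464 to 0.814 from 110 to 160 kb. After DMSO it also fell there, to 0.729 to 1.13 in replicate 1, but in replicate 2 it stayed above the mean at 1.12 to 1.59. Between the end of H3K27me3 and the end of H3K36me2, H3K27me2 was at 2.03 to 2.58 from 70 to 90 kb, 1.86 and 1.56 at 90 to 100 kb and 1.63 and 0.951 at 100 to 110 kb.

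The second start that RefSeq lists for Esrrb lies 60.5 kb inside the gene, at the position of the inner promoter sequence above. H3K27me3 there was higher than at the outer start, with 12.6 and 13.6. H3K36me3 was 2.91 and 3.19 and H3K36me2 2.39 and 1.83. The steep decline of H3K27me3 along the gene thus falls within 20 kb past this inner start.

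**Figure D3:**
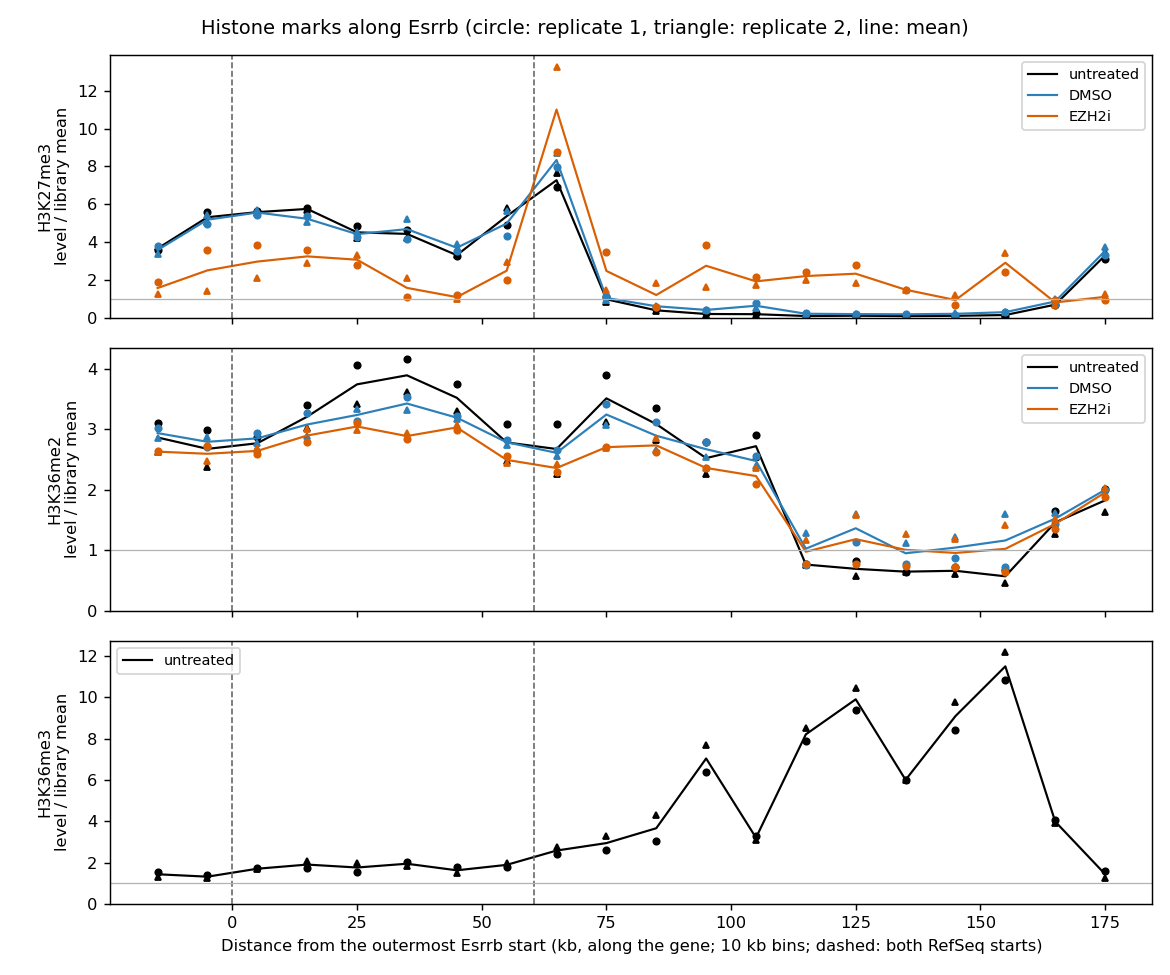
H3K27me3, H3K36me2 and H3K36me3 along Esrrb in 10 kb steps, as multiples of the library mean, for untreated, DMSO and EZH2i libraries. Points are libraries, lines are means and dashed lines mark both RefSeq starts. Untreated H3K27me3 fills the first 70 kb and H3K36me3 the last, and the EZH2i libraries stay highest in the step that holds the inner start.

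All 10 genes carried H3K36me3 in the body above the library mean in both libraries, with a median of 6.83 against 2.05 for 15760 genes with a body, of which 70.7% lay above the mean. Klf2 was highest with 15.9 and 16.0, followed by Tfcp2l1 (7.71 and 8.62), Nanog (7.02 and 8.19), Tbx3 (7.37 and 7.34) and Klf4 (6.48 and 8.22). Zfp42 had 6.67 and 5.95, Klf5 6.48 and 5.76 and Prdm14 5.78 and 5.53. The ranges of neighbours in this order overlap from Tfcp2l1 to Prdm14, while Klf2 stands clear of all others. Esrrb (4.45 and 4.99) and Dppa3 (2.49 and 3.37) were lowest, and they are the same 2 genes that held H3K27me3. The Esrrb value averages unlike parts of the gene. Its steps from 110 to 160 kb, where H3K27me3 was low, held H3K36me3 at 6.01 to 12.2.

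The highest H3K36me3 window lay 1.44 kb past the Klf2 start, at 19.6 and 20.0, and 2.47 kb past that of Klf4, at 10.6 and 14.6. It lay 4.51 kb inside Nanog and 7.01 kb inside Zfp42. The Nanog flanks were also high in H3K36me3 (3.65 and 3.34), and 6825 bp of the neighbouring gene Slc2a3, a glucose transporter, lie in them. The downstream side of Nanog held 5.95 and 5.65 and the upstream side 1.22 and 0.907. At Dppa3 the TSS (3.40 and 4.88) held more H3K36me3 than the body in each library. Within its 20 kb the highest H3K36me3 window lay at -19.9 kb, on the side where Gdf3 overlaps its flank.

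In untreated cells H3K36me2 was depleted in the bodies and abundant in the flanks. In the body 8 of the 10 genes lay below the library mean in both libraries, with a median of 0.629 against 1.35 for all genes, while 9 of 10 flanks lay above it, with a median of 2.27 against 1.55. Over all genes 63.1% of bodies and 67.5% of flanks lay above the mean. Esrrb (2.55 and 2.16) and Dppa3 (3.43 and 2.75) were again the 2 exceptions in the body in untreated cells. At Esrrb this too is an average, since its steps from 110 to 160 kb held 0.464 to 0.814. The DMSO libraries did not fully repeat the pattern over the 10 bodies. There the Prdm14 body had 1.16 and 1.48. Nanog (0.817 and 1.34), Klf2 (0.479 and 1.37), Tfcp2l1 (0.856 and 1.35), Klf5 (0.651 and 1.02) and Tbx3 (0.603 and 1.00) reached the mean in replicate 2 only. Klf4 (0.585 and 0.990) and Zfp42 (0.295 and 0.661) stayed below it. The flanks ran from 1.57 at Nanog to 3.19 at Tbx3, leaving out Zfp42 at 0.769 and 0.727.

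The authors' deposited H3K36me2 peaks, described as replicated between the untreated libraries, touched the TSS region of 8 of the 10 genes, against 58.0% of all genes. At several of them the peak ended near the start. The peak reaching 78.6 kb upstream of Klf2 ended at -562 bp from the start. Those at Nanog, Klf4 and Tfcp2l1 ended 511, 974 and 1077 bp past it. The Klf4 peak was short, 5.5 kb from end to end, but together with a further peak, 2 in all, it covered 86.8% of the upstream flank. The peaks at Nanog and Tfcp2l1 reached 58.0 and 32.4 kb upstream. At Tbx3 and Prdm14 the ends lay 2466 and 3662 bp into genes of 14191 and 13736 bp. In Esrrb the peak (chr12:86120501-86471000) ran on for 109883 bp of the gene's 160512 bp, and in Dppa3 it (chr6:122609501-122647000) covered the whole gene. Klf5 and Zfp42 had no H3K36me2 peak at the start.

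Deposited H3K27me3 peaks touched only the Esrrb and Dppa3 starts, 2 of 10 genes against 34.7% of all genes. The Esrrb peak spanned chr12:86329501-86395000 (65.5 kb), followed within the gene by peaks at chr12:86398001-86405500 and chr12:86407501-86432000. The last of these contains the inner start. The Dppa3 peak (chr6:122626501-122635000, 8.5 kb) began inside the TSS region, covered 46.2% of it and all of the body. H3K27me2 peaks touched 1 start, that of Dppa3 (40.2% of all genes), and H3K27me1 peaks none (34.4% of all genes).

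H3K27me2 was low at most of the starts, and H3K27me1 varied between replicates. At the TSS the H3K27me2 median was 0.368 against 0.923 for all genes, and 7 of the 10 genes lay below the mean in both libraries, where 45.9% of all genes lay above it on average. Dppa3 had 1.81 and 1.70, and Prdm14 1.37 and 0.966, while Esrrb lay on both sides of the mean. In the body Dppa3 (2.13 and 1.83), Prdm14 (1.33 and 1.31) and Esrrb (1.25 and 1.11) lay above the mean. Tfcp2l1 had the most H3K27me1 in the body, 2.36 and 1.59, and a deposited H3K27me1 peak covered 56.3% of its body. H3K27me1 at the TSS was higher in replicate 1 than in replicate 2 at all 10 genes, with 1.59 and 0.589 at Tfcp2l1 as an example. The 2 genes above the mean on average became 5 without replicate 2 and 1 without replicate 1. Over all genes 47.0% lay above the mean on average, and the median was 0.961 against 0.693 for the members.

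Zfp42 lay below the library mean in all 5 marks at the TSS. There it held 0.110 and 0.0906 H3K27me1, 0.0806 and 0 H3K27me2, 0.234 and 0.357 H3K36me2 and 0.709 and 0.804 H3K36me3, each the lowest of the 10 genes by its mean. Of the 78 windows in its flanks, 14 held no read in any of the 18 libraries. Without these windows its flank levels were 0.938 and 0.887 for H3K36me2 and 0.151 and 0.189 for H3K27me3, still the lowest and among the lowest of the 10. What left these windows empty was not tested.

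Genes outside the list that were most like each member over 15 untreated values (5 marks in 3 regions, log2 of the level plus 0.1) were named from 15759 genes. The nearest to Tfcp2l1 was Eno1, a glycolytic enzyme, at a Euclidean distance of 1.07 where the median gene lay at 6.55. Twf1 was nearest to Klf5 (1.22), Fzd5 to Klf4 (1.29), Fbxo39 to Dppa3 (1.30) and Tcf20 to Esrrb (1.39). Sall1, a zinc-finger factor gene, was nearest to both Prdm14 (1.54) and Nanog (1.86). Irf2bp2 was nearest to Tbx3 (1.54), the ribosomal protein genes Rpl39 and Rps28 to Zfp42 (1.65) and Klf2 (2.14). Only Tbx3 had another member closer than any other gene, Klf4 at 1.42. For Dppa3 and Esrrb, 3587 and 3498 genes were closer than the nearest other member. None of the 18 other pluripotency network genes measured was among the 10 nearest of any member. Since 18 genes are few among the 15759 compared, this says little about how alike they are.

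Other lists put these levels in context. Among the 18 of 25 other pluripotency network genes with a start site, the median H3K27me3 at the TSS was 0.213, and 3 lay above the library mean. The highest were Utf1 (3.24 and 2.79), a chromatin factor of pluripotent cells, and Gbx2 (2.69 and 3.31), a homeobox gene under LIF control. Among those with few or no reads were Stat3, which relays the LIF signal (0.0588 and 0), and Mybl2 (0.0392 and 0.0234). All 18 carried H3K36me3 above the mean in the body (median 6.23). Formative and primed genes, which come up as cells leave the naive state, had a median of 6.63 at the TSS over 4 of 7 genes measured, from Dnmt3b (3.73 and 3.70) to Fgf5 (7.29 and 7.99). The Esrrb start lay within their range. Polycomb-controlled lineage regulators reached a median of 14.3 over 8 of 15 genes, and the 10 of 12 housekeeping genes measured had a median of 0.0958. The H3K36me3 median in the body was 6.35 for housekeeping genes, 2.30 for formative and primed genes and 1.85 for Polycomb regulators. For H3K36me2 the body medians were 0.359 (housekeeping), 1.02 (network), 1.71 (formative and primed) and 1.90 (Polycomb). The H3K36me2 flank medians were 1.45, 2.33, 2.04 and 1.66 in that order.

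The DMSO libraries repeated the untreated pattern of H3K27me3 in separate libraries. At the TSS 8 genes lay below the library mean in both DMSO libraries, and Esrrb (6.72 and 8.26) and Dppa3 (2.01 and 2.43) above it. In the body, too, Esrrb (2.39 and 2.60) and Dppa3 (2.81 and 3.26) were the 2 genes above the mean. In the flanks Esrrb alone was above, at 3.20 and 3.40.

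The next question was what EZH2 inhibition did to H3K27me3 at these genes, on the deposited scale, on which each read carries a library factor, here assumed to be the spike-in correction. Levels on this scale are scaled reads per 1 kb window. The mean over the genome was 48.7 and 35.7 after DMSO and 0.0911 and 0.0668 after the inhibitor, a 534-fold difference with an exact two-sided permutation p of 0.333, the smallest that 2 against 2 libraries allow. H3K27me3 fell at nearly every gene in the genome, so a fall at a member says little about that member.

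At the TSS, H3K27me3 was called lower at 8 of 9 genes tested, against 98.2% of all genes tested. In the body it was called lower at 10 of 10 (99.6% of genes), and in the flanks at 10 of 10 (99.9%). Calls are from limma on log2(scaled reads + 1) with a Benjamini-Hochberg adjusted p under 0.05. The Esrrb start held 327 and 295 after DMSO and 0.484 and 0.0990 after EZH2i, a change of -7.93 ± 0.30 (log2, SE, adjusted p = 5.25e-06), and no member fell further there. The Dppa3 start went from 98.1 and 86.8 to 0.0605 and 0.198 (-6.37 ± 0.27, adjusted p = 5.25e-06). For both genes the arms were far apart, but the low values rest on 1 to 8 window reads in each EZH2i library.

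Members with little H3K27me3 after DMSO had smaller changes on this scale, which understates the change of low values. The Prdm14 start went from 31.2 and 20.2 to 0.121 and 0.272 (-4.45), that of Nanog from 25.3 and 11.8 to 0 and 0.0990 (-4.13), and that of Klf2 from 14.9 and 8.43 to 0 and 0.619 (-3.26). Klf4 (-3.86), Tbx3 (-3.42) and Klf5 (-3.35) lay between these. Tfcp2l1 was the gene not called, with 19.3 and 0.843 after DMSO, from 13 and 1 window reads, and 0 and 0.124 after EZH2i (-2.53 ± 1.07, adjusted p = 0.0607). With 1 of the 4 libraries left out, its change ran from -4.26 without DMSO replicate 2 to -0.80 without DMSO replicate 1. The latter sets 1 DMSO window read against the EZH2i libraries, so the size of this change is not resolved. Zfp42 held 0 window reads in both DMSO libraries and 6 and 3 in the EZH2i libraries and did not reach the 10 window reads needed for the test. A count of 0 allows 11.8 and 6.70 on the deposited scale in the DMSO libraries, so nothing can be said of a change there.

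In the body and flanks all members lost H3K27me3, on 15 to 105 window reads in each EZH2i library for the flanks and 1 to 594 for the bodies. The Dppa3 body, called lower, went from 137 and 116 to 0.0403 and 0.0330, which are 1 and 2 window reads. The Esrrb body fell from 116 and 92.7 to 0.241 and 0.184 (-6.43 ± 0.23, adjusted p = 2.2e-07), with 318 and 594 window reads left. Changes at the other 8 bodies ran from -4.41 at Nanog to -2.12 at Zfp42. In the flanks they ran from -6.95 at Esrrb, where the mean level was 1160-fold lower, to -2.44 at Zfp42, 122-fold lower. On the linear scale the smallest flank fold was 68.7 at Nanog, below the 534 of the genome. The adjusted p-values of the flanks are not printed: limma there used a single SE for all genes, 0.235 to 0.236 for the members. That SE pools the spread over genes as if they were independent, while a shift of a whole library is shared by all its genes.

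The median change at the TSS was -3.86 for the members tested, -3.71 for 18 network genes and -7.68 for 4 formative and primed genes, against -4.91 for all genes tested. The lists differed before treatment, with untreated TSS medians of 0.131, 0.213 and 6.63 times the library mean. Since this scale understates the change of low values, the order of the lists cannot be read as a difference in loss. Of the network genes 17 of 18 were called lower at the TSS, and 4 of 4 formative and primed genes were.

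**Figure D4:**
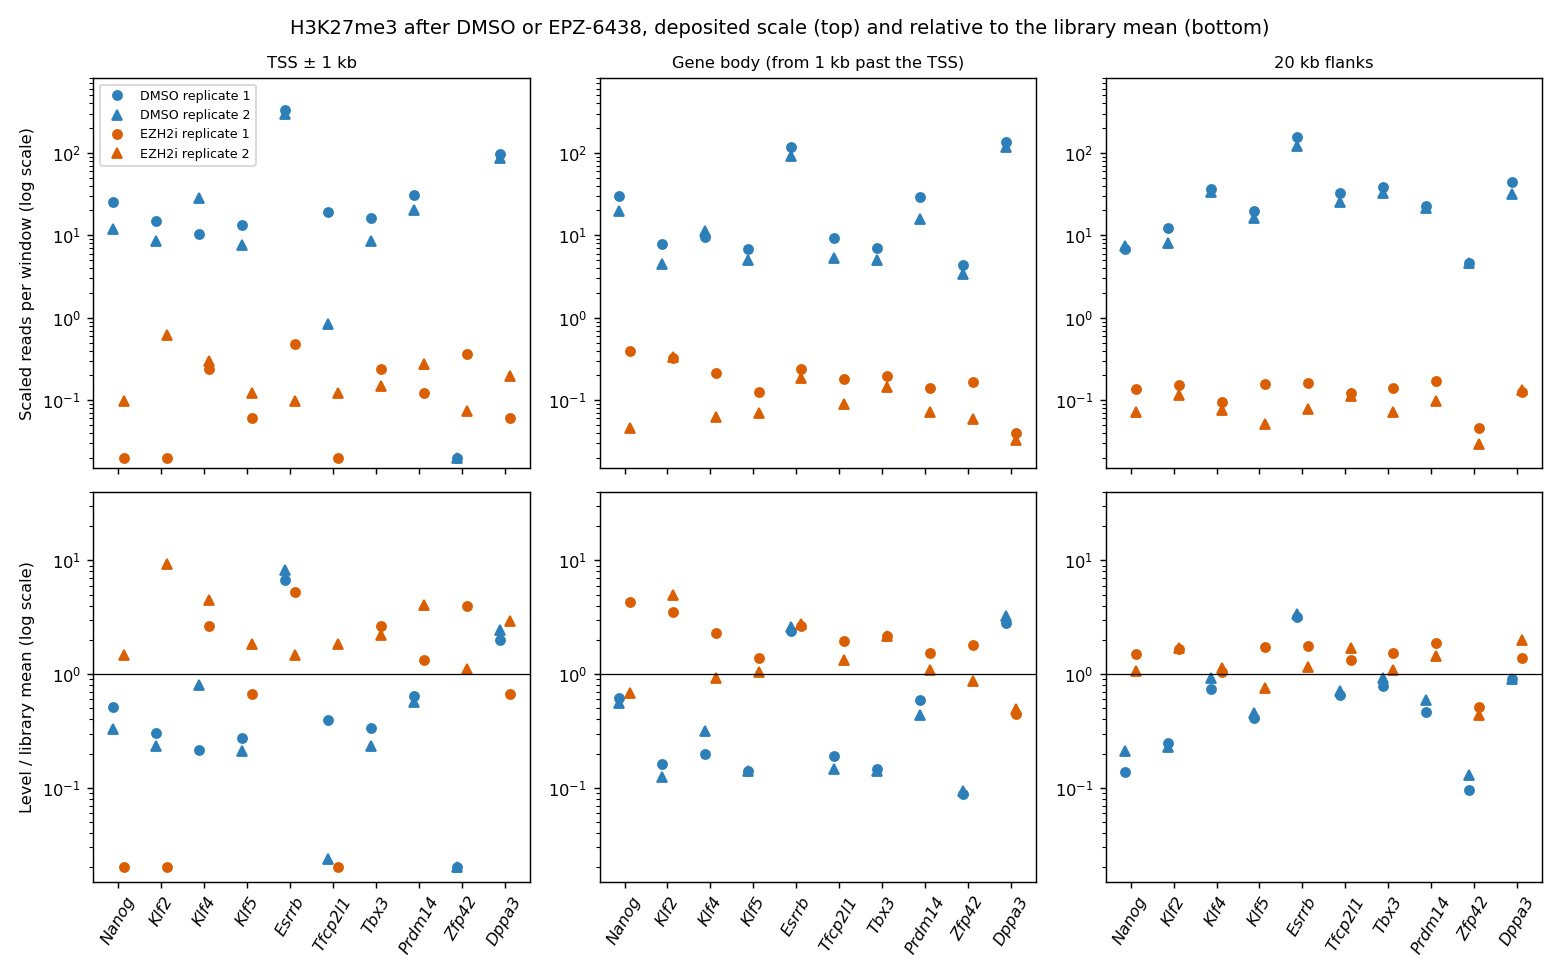
H3K27me3 at the 10 genes in 2 DMSO (blue) and 2 EZH2i (orange) libraries, as scaled reads per window on the deposited scale (top) and as multiples of the library mean (bottom), on log axes. Values under 0.02 are drawn at 0.02. On the deposited scale the arms are far apart in the bodies and flanks, and a few reads decide the Tfcp2l1 and Zfp42 starts; relative to the library mean 9 bodies and 9 flanks are higher after EZH2i.

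Relative to each library's own mean, the reads that remained after inhibition were spread differently over these genes. In the body 9 of 10 genes held a larger multiple of the mean in both EZH2i libraries than in both DMSO libraries, against 49.8% of all genes, and 1, Dppa3, a smaller one, against 27.4%. In the flanks 9 were higher (44.3% of genes) and 1, Esrrb, lower (27.6%). At the TSS 5 were higher (32.5%), 1, Esrrb, lower (28.3%), and 4 overlapped. All 5 rest on few reads, 1 to 6 window reads in EZH2i replicate 1 and 3 to 12 in replicate 2. In replicate 1 each lay below the 5.28 times the mean that 3 reads give, so none of these starts is resolved. The lower Esrrb start rests on 8 and 4 window reads. It had 5.31 and 1.48 times the mean, where 3 reads give 5.28 and 2.95, so it is not resolved either. At Zfp42 the DMSO libraries held no read and any read counts as higher. The median of the 10 bodies was 0.214 after DMSO and 1.64 after EZH2i, and that of the flanks 0.607 and 1.39.

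The Tbx3 body went from 0.146 and 0.142 to 2.14 and 2.17, that of Klf2 from 0.163 and 0.126 to 3.54 and 4.94, and that of Tfcp2l1 from 0.191 and 0.148 to 1.97 and 1.34. For Tbx3 and Tfcp2l1 the arms lay far apart, with 84 and 102 window reads in the EZH2i libraries for Tfcp2l1. The Klf2 body held few reads in both arms. Each DMSO library had 4 window reads there, and the EZH2i libraries had 4 and 10. The gap between the arms at Klf2 is therefore not resolved. The Zfp42 body went from 0.0888 and 0.0944 to 1.81 and 0.876. These bodies, all low after DMSO, were near or above the library mean after EZH2i. The 2 EZH2i libraries did not always resemble each other: the Nanog body had 4.29 and 0.684, and the Klf2 start 0 and 9.26, the latter from 25 window reads.

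Scaled to equal library totals and fitted with limma, 7 bodies were called higher (36.9% of genes) and 1 lower (7.75%). Among the flanks 6 were higher (25.4%) and 1 lower (7.3%), and among the starts 1, Tbx3, was higher (4.7%) and 0 lower (5.71%). Few reads stand behind the starts and bodies of the EZH2i libraries, so these calls are given as counts only. On the same scale 8 of 10 housekeeping bodies and 10 of 17 network bodies tested were called higher, and in the flanks 7 of 10 and 5 of 18, so such calls were not limited to the naive factor genes.

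Dppa3 and Esrrb, the 2 genes that held H3K27me3, differed in the region called lower on library totals, and the difference between them was not tested. The Dppa3 body had 2.81 and 3.26 times the mean after DMSO and 0.442 and 0.494 after EZH2i, where 1 and 2 window reads are too few to give the size of a change. Its flanks had 1.40 and 1.99 after EZH2i, above both DMSO libraries. The Esrrb flanks fell from 3.20 and 3.40 to 1.77 and 1.16, with an adjusted p of 0.0274 (-1.19 ± 0.26), while its body had 2.65 and 2.76 after EZH2i against 2.39 and 2.60 after DMSO.

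Within the Esrrb body the remaining reads lay unevenly. At the inner start the level was 19.1 and 18.6 times the library mean after DMSO and 19.9 and 37.0 after EZH2i, from 30 and 100 window reads. These 4 windows, 1.25% of the 319 body windows, held 10.0 and 8.97% of the body's window reads after DMSO and 9.43 and 16.8% after EZH2i. On the deposited scale the inner start went from 929 and 663 to 1.81 and 2.48, a 371-fold lower mean. In the surrounding step at 60 to 70 kb the EZH2i libraries had 8.76 and 13.3 times their mean against 7.95 and 8.73 after DMSO. In the step at 30 to 40 kb they had 1.06 and 2.07 against 4.17 and 5.19, and at 110 to 120 kb, where DMSO libraries had 0.214 and 0.184, they had 2.39 and 2.00. This inner start was examined after the values along the gene had been seen, and its difference was not tested.

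H3K36me2 was then compared between the arms. No member was called in any region: 0 of 10 at the TSS (0.487% of all genes called), 0 of 10 in the body (0.187%) and 0 of 10 in the flanks (0% of genes). Unadjusted p-values under 0.05 were found for 461, 281 and 100 genes in the 3 regions, and limma-voom on the recovered reads called 0, 3 and 4 genes. The genome mean was 323 and 213 after DMSO and 404 and 227 after EZH2i, so replicates of an arm differed by more than the arms did, with an exact two-sided permutation p of 0.667. Changes at the members ran from -0.10 to 0.29 at the TSS (SE 0.59), -0.21 to 0.26 in the body (SE 0.49) and -0.05 to 0.18 in the flanks (SE 0.51). Changes of the size of these SEs were not detectable here. On the deposited scale both EZH2i libraries lay above both DMSO libraries at 1 start (7.26% of genes), 2 bodies (6.82%) and 0 flanks (5%), and below them at no member at the TSS (1.63% of genes), in the body (1.03%) or in the flanks (0.156%). The start was that of Klf2, with 318 and 314 after DMSO and 321 and 367 after EZH2i. The bodies were those of Nanog (264 and 286, then 345 and 288) and Klf5 (211 and 218, then 288 and 230). These gaps are narrow, and none of the 3 was called. The Tbx3 start gave the highest change, 0.29, with 351 and 253 after DMSO and 409 and 326 after EZH2i. The Dppa3 body gave the lowest, -0.21, with 1046 and 641 after DMSO and 911 and 547 after EZH2i. The signs depended on single libraries. In the flanks all 10 changes were positive without DMSO replicate 1 or EZH2i replicate 2 (up to 0.64) and all 10 negative without DMSO replicate 2 or EZH2i replicate 1 (down to -0.47). The median flank change over all genes tested flipped alike, with 0.39 and 0.49 in the first 2 cases and -0.20 and -0.29 in the others. The flip is therefore shared by the libraries as a whole and is not particular to the members. At the TSS all 10 member changes were positive in the first 2 cases and 8 of 10 negative in the others. In the body the members went both ways in each case, and the Dppa3 change was 0.14 without DMSO replicate 1 and 0.15 without EZH2i replicate 2.

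**Figure D5:**
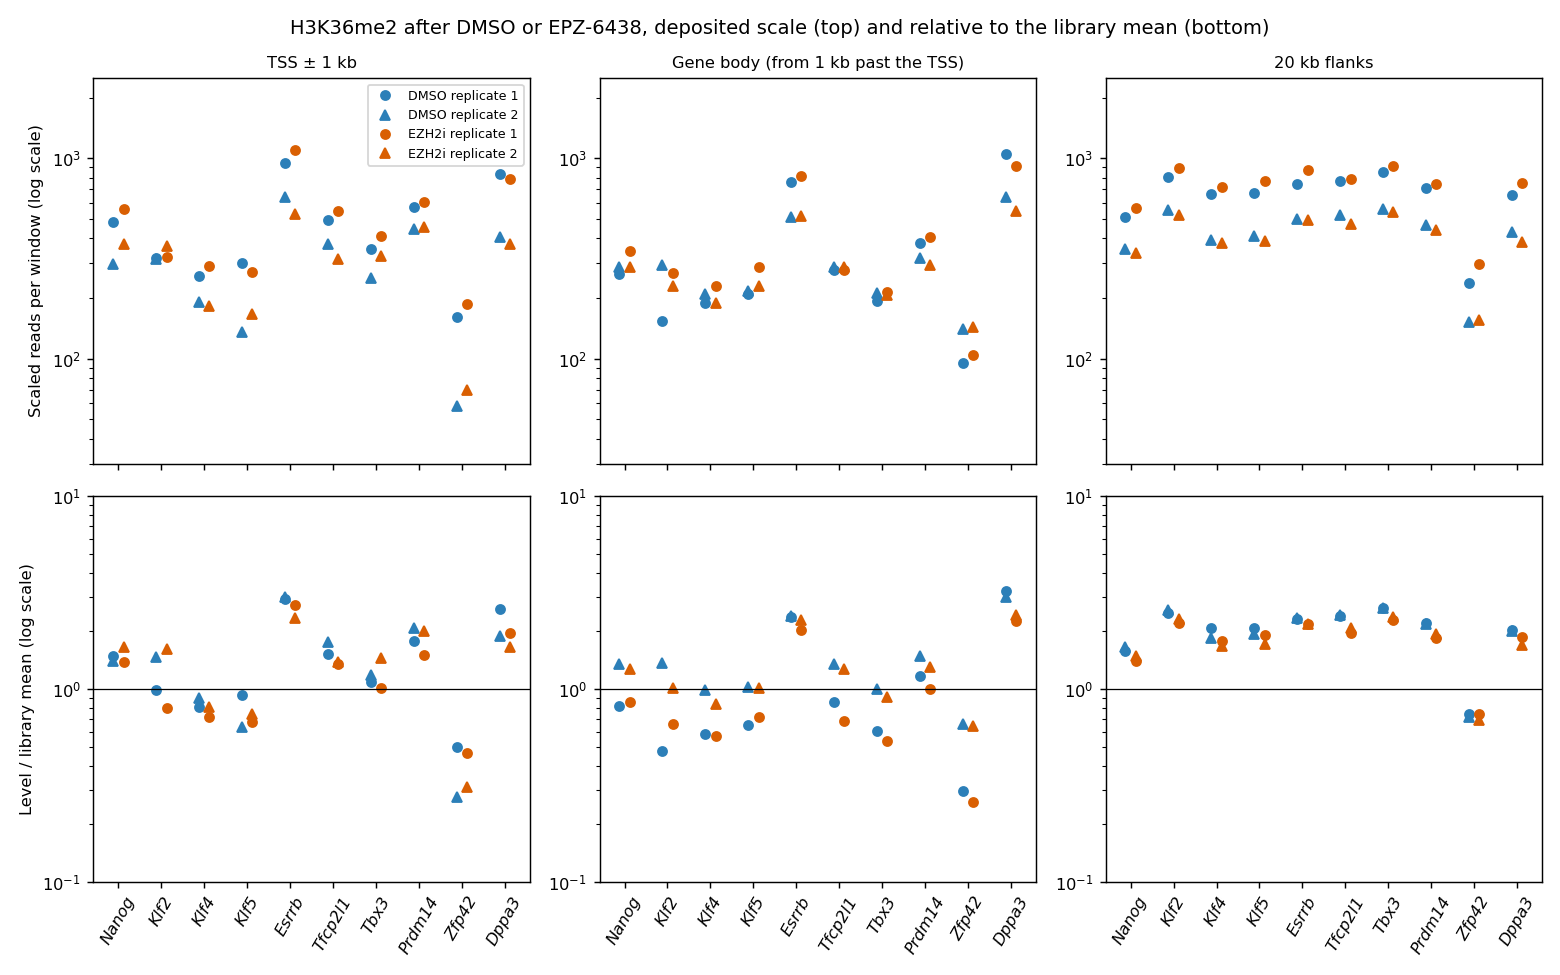
H3K36me2 at the 10 genes in 2 DMSO (blue) and 2 EZH2i (orange) libraries, as scaled reads per window on the deposited scale (top) and as multiples of the library mean (bottom), on log axes. On the deposited scale the arms overlap except at the Klf2 start and the Nanog and Klf5 bodies; relative to the library mean both EZH2i libraries are lower in 9 of 10 flanks.

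Relative to the library mean, H3K36me2 in the flanks was lower in both EZH2i libraries than in both DMSO libraries at 9 of 10 genes, against 45.3% of all genes. The Tfcp2l1 flanks went from 2.38 and 2.43 to 1.95 and 2.09, those of Prdm14 from 2.19 and 2.18 to 1.84 and 1.94, and those of Tbx3 from 2.64 and 2.62 to 2.27 and 2.38. These shifts are small, with a median of -0.17 on the log2 scale. In Zfp42, with 0.742 and 0.714 after DMSO and 0.738 and 0.690 after EZH2i, the arms overlapped. At the TSS 2 genes, Esrrb and Tfcp2l1, were lower (38.9% of genes), and in the body 2, Esrrb and Dppa3 (36.2%). No member was higher in both EZH2i libraries at the TSS (11.7% of genes), in the body (15.8%) or in the flanks (20.1%). The Dppa3 body had the widest gap, 3.23 and 3.01 after DMSO against 2.25 and 2.41 after EZH2i. Scaled to library totals, limma called 0 of 10 members in the flanks (2.24% of genes), 0 at the TSS (0.0119%) and 0 in the body (0%). The median flank change was -0.17 for the members and -0.12 for all genes. It was -0.17 for 18 network genes, -0.19 for 4 formative and primed genes and -0.196 for 10 housekeeping genes. For 8 Polycomb lineage regulators it was 0.029. The small relative fall in the flanks was thus not limited to the naive factor genes.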

How the data were processed

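Each library was a deposited track of log2 values that the authors made in 1 kb windows every 500 bp; undoing the log2 and taking away 1 left whole multiples of a library factor in 100% of windows (tolerance 0.02), and these multiples were used as reads. The factor of the quantitative libraries is not explained in the sources and was taken as the authors' spike-in factor. The submitters' processing notes name Trim Galore 0.4.2, Bowtie2 2.2.6.2, SICER, mm10 and dm3. The authors' deposited peak lists carry a score, used here only to rank peaks within a list. A peak list for H3K36me3 and input libraries were not used here.

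Windows belonged to a region by their centre. RefSeq gives 21631 protein-coding genes on the autosomes and X, and 17278 had a strand. The strand of 4 members (Klf5, Tbx3, Prdm14, Dppa3) came from general knowledge. EZH2i and DMSO libraries of a mark were compared with limma 3.58.1 (R 4.3.3; lmFit, eBayes, no covariate) on log2(mean scaled reads per window + 1), for genes with at least 10 window reads over 4 libraries, with Benjamini-Hochberg adjustment over all genes. The fit was tested on simulated data: for H3K27me3 at the TSS and in the body on library totals it found few genes given the smaller fold and called more genes given none, so its calls there are weak. Alternatives were other scales, pseudocounts, filters, windows, limma-voom, a replicate block and libraries left out. The text names all members, at most 4 genes of each other list by H3K27me3 at the TSS, the nearest gene by profile, and flanking genes. Members and lists were chosen with earlier results of these data known. The labels give no batch.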

Additional observations from a re-analysis of the deposited data

How the results depend on the processing

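The change of H3K27me3 at the members tested stayed negative on the deposited scale under every alternative tried, except that without a filter Zfp42, with 0 window reads in both DMSO libraries, had 0.28 at the TSS. With library totals in place of the deposited factor, which removes the genome-wide fall by construction, 908 genes at the TSS, 1180 in the body and 1250 in the flanks were called lower, and 0, 1 and 1 members. Of the member changes, 24 turned positive. At the TSS they were 0.68 for Klf2, 2.97 for Klf4, 2.10 for Klf5, 0.58 for Tfcp2l1, 3.01 for Tbx3 and 1.91 for Prdm14. In the body they were 1.51 for Nanog, 4.65 for Klf2, 2.44 for Klf4, 2.90 for Klf5, 0.12 for Esrrb, 3.10 for Tfcp2l1, 3.70 for Tbx3, 1.30 for Prdm14 and 3.48 for Zfp42. In the flanks they were 2.72 for Nanog, 2.70 for Klf2, 0.39 for Klf4, 1.37 for Klf5, 1.10 for Tfcp2l1, 0.59 for Tbx3, 1.60 for Prdm14, 1.88 for Zfp42 and 0.86 for Dppa3. Testing only genes with reads in all 4 libraries left 10377 genes called lower at the TSS, since fewer were tested. Tfcp2l1 was called lower at the TSS under limma-voom (-5.94) and the replicate block. With 1 of the 4 libraries left out its change ran from -4.26 to -0.80. With a library left out, the lone sample of an arm is assumed to vary like the other arm.

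For H3K36me2 no member was called under any alternative, while the count over all genes moved. At the TSS it was 82 in the reported fit, 2 on library totals, 0 with a pseudocount of 10, 0 without a filter, 16 for genes with reads in all 4 libraries, 0 with limma-voom, 19 with 2 kb to each side of the start and 26 to 129 with a library left out. In the body it was 29 in the reported fit, 0 on library totals, 0 with a pseudocount of 10, 0 without a filter, 5 for genes with reads in all 4 libraries, 3 with limma-voom, 19 for windows wholly inside and 9 to 60 with a library left out. In the flanks it was 384 on library totals and 4 with limma-voom. With a library left out the Dppa3 body change ranged from -0.58 to 0.15. The cause of these moves was not tested.

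Replicate numbers are shared between arms, but only 2 pairs exist and the labels tie nothing to a number. The correlation of same-numbered deviations was at most 0.144 for H3K27me3 and 0.123 to 0.649 for H3K36me2. With the replicate number as a block, 0 genes were called for H3K36me2 at the TSS, 1513 in the body (9.73%) and 3470 in the flanks (20.2%). Of the genes called, 1476 in the body and 3438 in the flanks were higher after EZH2i. The members called were 0 in each region.

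In untreated cells, Esrrb fell below the library mean in H3K27me3 in the body when the median over windows replaced the mean (0.548), which left 1 member above it. Flanks above the mean in H3K27me3 were 2 for windows wholly inside and 1 to 2 with a replicate left out, and H3K27me1 starts above the mean were 1 to 5. Requiring at least 0.5 of the TSS region in a peak, or the higher-scoring peaks, left 1 member with an H3K27me3 peak. The depth of H3K27me3 after the inhibitor, 0.992 and 1.78 M window reads, limits every TSS value of that arm.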
